A study of Mus musculus with 6 samples.

Results

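The genes described here are 33 markers of macrophages, antigen-presenting cells and lymphocytes, read from a table of 27131 genes. They were chosen by symbol from a list, drawn up with earlier results of these data known. All 33 were found, 32 under the symbol of the list and Spi1 under its former symbol Sfpi1. RNA of the levator ani/bulbocavernosus muscle, an androgen-sensitive muscle of the pelvic floor, was sequenced from mice killed at 14 weeks of age on a standard diet. The 113Q group holds 3 mice with a knock-in allele that models SBMA, and the WT group holds 3 wild-type mice. No source used here names their strain or sex or says whether they were littermates. SBMA, or spinal and bulbar muscular atrophy, is a disease of motor neurons and muscle in which the androgen receptor carries an expanded glutamine tract.

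Skeletal muscle holds resident macrophages between its fibres, together with a few dendritic cells and lymphocytes. Macrophages arise under the growth factor receptor Csf1r and the transcription factor Spi1 (PU.1), take up debris through scavenger and Fc receptors, and make the C1q chains that start the classical complement cascade. Antigen-presenting cells load peptides on MHC class II molecules, whose chains are guarded by the invariant chain Cd74 until the protease Ctss removes it. After muscle injury or denervation, monocytes carrying Ccr2 can enter the tissue towards the chemokine Ccl2. In whole muscle, more cells of a type cannot be told apart from more RNA per cell.

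The libraries held between 43581087 and 73873481 estimated counts. Levels are given as CPM, counts relative to the size of the library after scaling with TMM factors, which set the bulk of genes equal between libraries. The muscle label was borne out in all 6 libraries, with the creatine kinase gene Ckm at 9005 to 12450 CPM in the 113Q mice and 34703 to 40241 CPM in the WT mice. All 12 myofibre markers passed as lower in 113Q mice, 9 of them also with library totals alone. All 12 endothelial markers passed as lower under TMM scaling, whereas with library totals alone 0 were lower and 2 higher. Of all 16960 genes tested, 16.5% passed as higher and 18.1% as lower (18.1% and 20.2% in DESeq2, 18.2% and 19.4% in voom). At an unadjusted p below 0.05 edgeR had 3753 and 3796. Satellite cell markers had 7 of 10 higher and 1 lower. Smooth muscle and pericyte markers had 2 of 12 higher and 1 lower (5 and 1 in DESeq2 and at an unadjusted p below 0.05). The lower one in edgeR was Des. Adipocyte markers had 1 of 11 higher and 3 lower, the 3 being Car3, Lpl and Fabp4. Adipoq and Plin1 did not pass (log2 fold change -0.29 and -0.34, edgeR adjusted p = 0.866 and 0.844). Schwann cell markers had 2 of 11 higher and 0 lower. They had 2 and 1 in voom, 3 and 1 in DESeq2, and 4 and 1 at an unadjusted p below 0.05. None of 12 fibroblast markers passed in edgeR or voom (3 higher in DESeq2 and 3 at an unadjusted p below 0.05), nor did any of 4 erythroid markers by any of these measures. Epcam, a gene of epithelium, had levels of 0, 8.29 and 10.2 CPM in 113Q mice 1, 2 and 3, against 0, 3.83 and 0.0385 CPM in WT mice 1, 2 and 3. Libraries of both groups therefore held epithelial transcripts, and values within and without those libraries are given for the members called and for those that follow them. None of the 12 epithelial markers tested passed with any of the 3 tools, also before adjustment in edgeR, while 11 had a positive log2 fold change. Their summed level was 2.98, 92.2 and 133 CPM in the 113Q mice, against 3.67, 67.5 and 3.45 CPM in the WT mice.

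Most leukocyte marker transcripts did not differ past the test between 113Q and WT muscle, and those that did were higher in 113Q. Of the 32 members with enough counts to test, 3 passed as higher in 113Q (9.38%) and 0 as lower, while 16.5% of all 16960 genes tested passed as higher and 18.1% as lower (34.6% in all; edgeR quasi-likelihood test, adjusted p below 0.05). The 3 were Aif1, Mpeg1 and H2-Eb1. DESeq2 called 5 members higher and 0 lower (all genes 18.1% and 20.2%, 38.3% in all). In voom 3 and 0 were called (all genes 18.2% and 19.4%, 37.5% in all). At an unadjusted p below 0.05 edgeR had 5 and 0 of the 32 members, beside 3753 and 3796 of all 16960 genes tested. The median log2 fold change was 0.15 over the tested members and 0.01 over all genes tested. In edgeR 27 of 32 members had a positive value, beside 8633 of all 16960 genes tested. In voom 23 of 32 members did, beside 8746 of all genes tested. The 2 groups of mice did not overlap for 4 tested members, all higher in 113Q (12.5%), while 25.1% of all genes tested were higher and 24.8% lower without overlap (49.9% in all). The 33 members summed to 350.0, 395 and 361 CPM in the 113Q mice, against 278, 302 and 359 CPM in the WT mice.

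**Figure D1:**
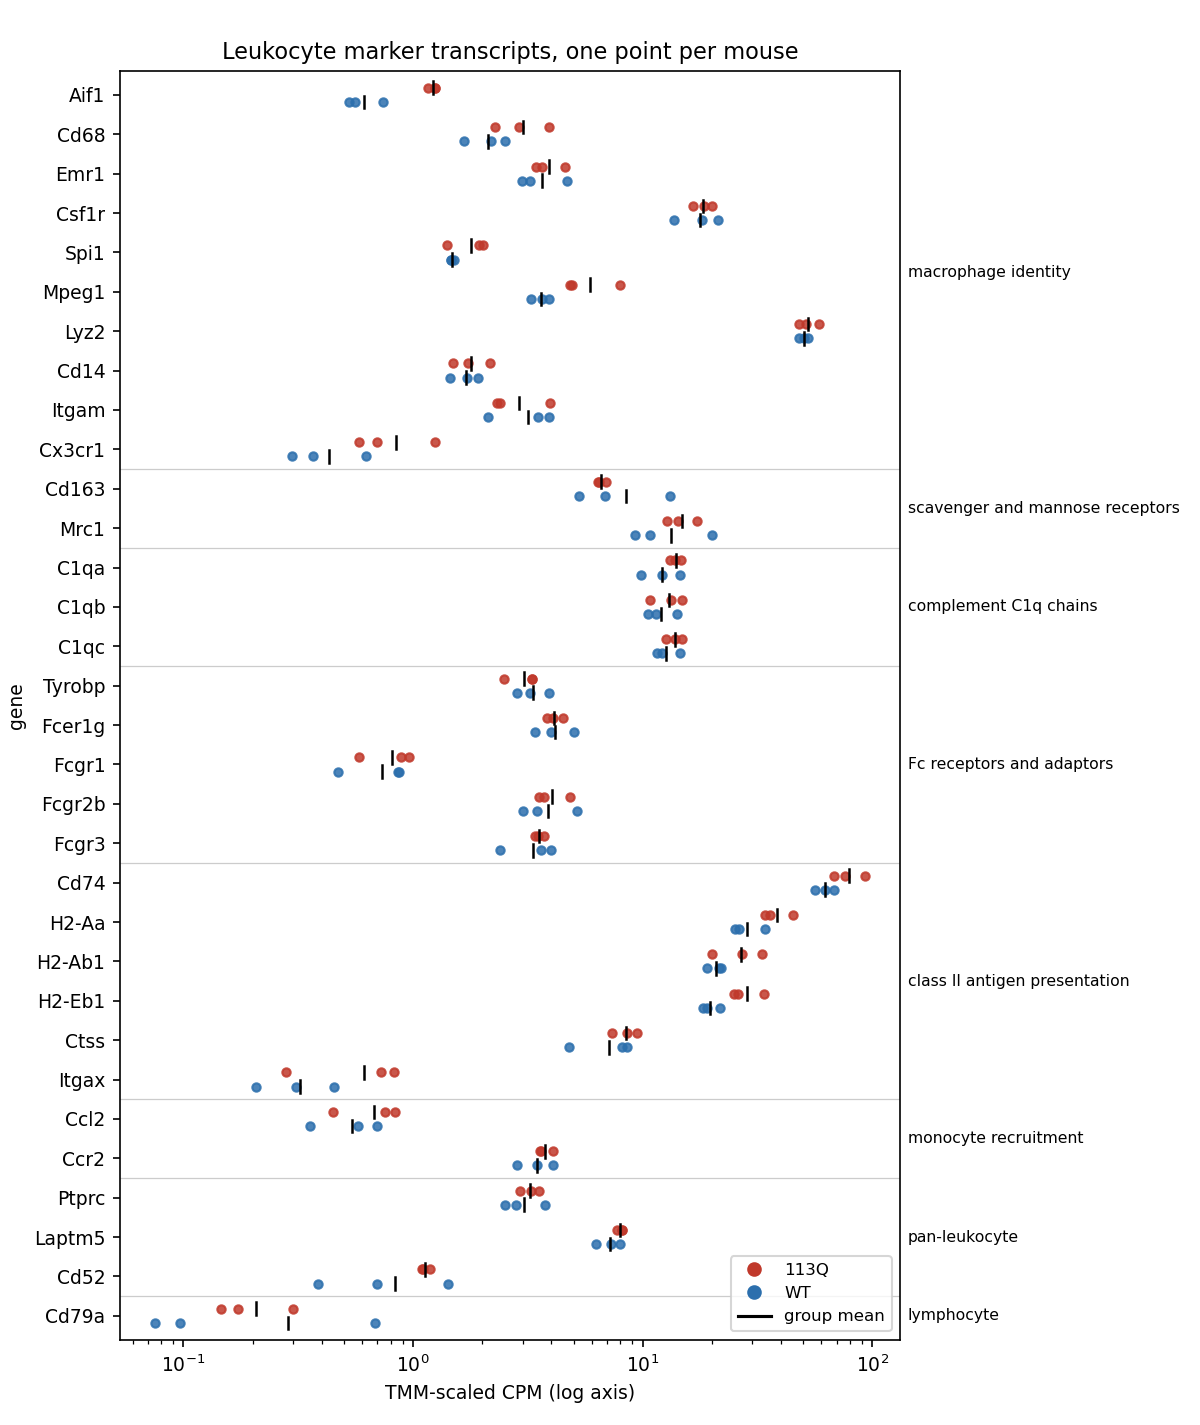
TMM-scaled CPM (log axis) of the 32 tested members, with 113Q mice in red above WT mice in blue, 1 point per mouse and a bar at the group mean (n = 3 each). The groups overlap for most genes, and Aif1, Mpeg1, Cd74 and H2-Eb1 are those with all 113Q mice above all WT mice.

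How large these values look depends on what a library is scaled to. The members made up 0.0462%, 0.0501% and 0.0456% of all counts in the 113Q libraries, against 0.0216%, 0.0232% and 0.0285% in the WT libraries, so their share of the library was higher in every 113Q mouse. With libraries scaled to their totals alone, 28 of 32 members passed as higher (87.5%) and 0 as lower, beside 64.9% and 4.19% of all genes (69.1% in all). That scaling moved the median of all genes by 0.72 on the log2 scale. Relative to the median gene the members lay 0.13 higher under either scaling. Changes below are given under the TMM scaling, relative to the other genes.

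**Figure D2:**
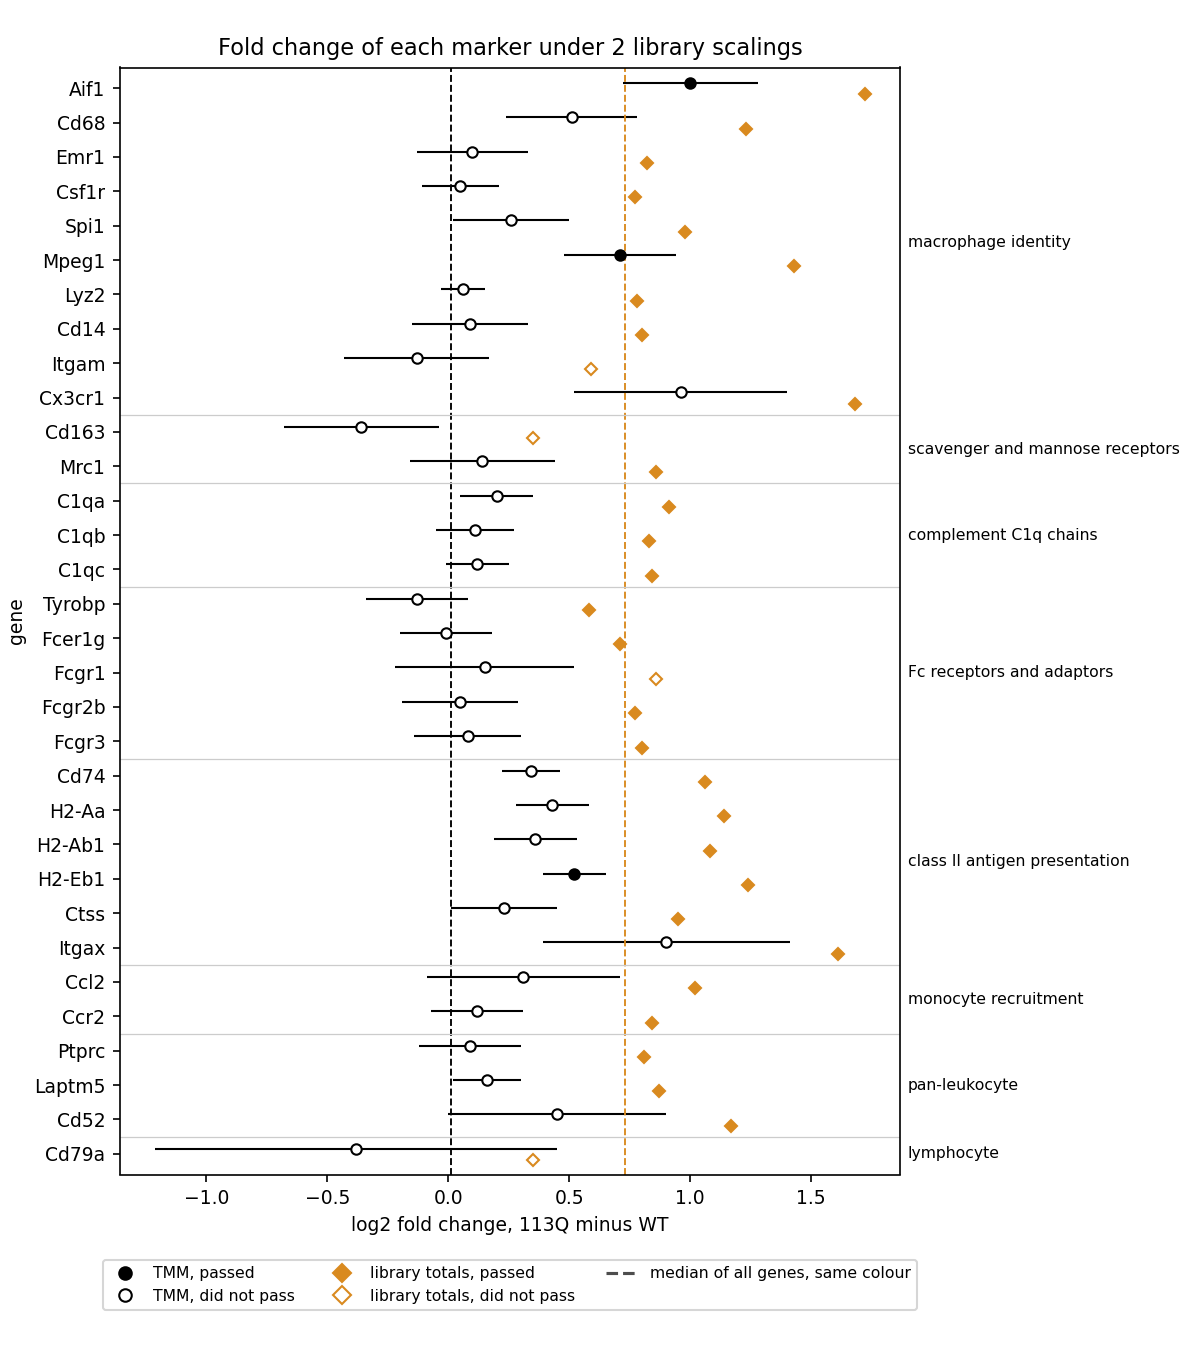
Log2 fold change (113Q minus WT) of each tested member with TMM scaling (circles, bars are the standard error) and with library totals alone (diamonds), filled where the adjusted p passed 0.05; dashed lines mark the median of all genes. Both sets of values shift together, and 3 circles and 28 diamonds are filled.

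Among the macrophage identity genes, 2 of 10 passed, both higher in 113Q (20%, beside 16.5% of all genes tested). Aif1, which encodes the actin-bundling protein Iba1 of macrophages and microglia, was at 1.24, 1.25 and 1.16 CPM in the 113Q mice, against 0.740, 0.528 and 0.558 CPM in the WT mice. These levels rest on 111, 112 and 108 counts in the 113Q libraries, against 25, 28 and 29 in the WT libraries. All 3 113Q mice lay above all WT mice, and the level was 2.01 times higher (log2 fold change 1.00 ± 0.28 SE, edgeR adjusted p = 0.0249). Mpeg1, which encodes the pore-forming protein perforin-2 of phagocytes, was at 4.82, 7.98 and 4.91 CPM in the 113Q mice, against 3.26, 3.91 and 3.66 CPM in the WT mice. It was 1.64 times higher (log2 fold change 0.71 ± 0.23 SE, edgeR adjusted p = 0.0434), with 113Q mouse 2 well above its group.

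Neither call was independent of single mice. Aif1 kept its call when WT mouse 1 was left out (edgeR adjusted p = 0.0266) and lost it without 113Q mouse 1, 2 or 3 (adjusted p = 0.0598, 0.084 and 0.0676) and without WT mouse 2 or 3 (adjusted p = 0.0652 and 0.0737), while its log2 fold change stayed between 0.91 and 1.16. Mpeg1 kept its call without 113Q mouse 1 (edgeR adjusted p = 0.0405) and lost it without 113Q mouse 2 or 3 (adjusted p = 0.156 and 0.0526) and without WT mouse 1, 2 or 3 (adjusted p = 0.117, 0.0637 and 0.0948). Without 113Q mouse 2 its log2 fold change was 0.44. Within the libraries with Epcam the mean log2 difference was 1.19 for Aif1 and 0.68 for Mpeg1, and within those without it 0.95 and 0.48. Over all alternatives the edgeR, DESeq2 or voom adjusted p ran from 0.000759 to 0.292 for Aif1 and from 0.000614 to 0.35 for Mpeg1.

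The other 8 macrophage identity genes did not pass. Csf1r, the receptor for the growth factor CSF1, was at 20.0, 16.5 and 18.5 CPM in the 113Q mice, against 13.7, 18.2 and 21.3 CPM in the WT mice. Emr1, the gene of the F4/80 antigen (now Adgre1), was at 4.59, 3.43 and 3.66 CPM in the 113Q mice, against 2.99, 3.23 and 4.68 CPM in the WT mice. In both genes the WT range enclosed the 113Q range. Their log2 fold changes were 0.05 ± 0.16 and 0.10 ± 0.23 (SE; edgeR adjusted p = 0.851 and 0.773). Lyz2, the myeloid lysozyme, averaged 52.6 ± 5.45 CPM in 113Q mice and 50.4 ± 2.24 CPM in WT mice (SD, n = 3 each), a log2 fold change of 0.06 ± 0.09. It has a close copy, Lyz1, with 614 to 807 estimated counts in the 113Q libraries and 330 to 517 in the WT libraries, and how reads were divided between the copies is not known.

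The other identity genes overlapped between groups. Spi1 averaged 1.78 ± 0.333 CPM in 113Q mice and 1.48 ± 0.025 CPM in WT mice, and Cd68, a lysosomal membrane glycoprotein of macrophages, averaged 3.02 ± 0.826 CPM in 113Q mice and 2.11 ± 0.429 CPM in WT mice (SD, n = 3 each). The lipopolysaccharide co-receptor Cd14 averaged 1.79 ± 0.334 CPM in 113Q mice and 1.69 ± 0.227 CPM in WT mice. Their adjusted p in edgeR was 0.435, 0.173 and 0.818. Itgam, the integrin chain CD11b of myeloid cells, was at 3.95, 2.38 and 2.33 CPM in the 113Q mice, against 3.49, 2.11 and 3.91 CPM in the WT mice. Its exons overlap the annotated gene Gm49368 on the same strand. Cx3cr1, the fractalkine receptor, was at 0.581, 1.25 and 0.697 CPM in the 113Q mice, against 0.296, 0.623 and 0.366 CPM in the WT mice. Its log2 fold change of 0.96 ± 0.44 did not pass (edgeR adjusted p = 0.127), and 113Q mouse 1 lay below WT mouse 2.

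Of the 6 class II presentation members 1 passed as higher (16.7%, beside 16.5% of all genes) and 0 as lower, while DESeq2 called 3 higher and voom 2, and all 6 had a positive log2 fold change. H2-Eb1, the class II beta chain of the I-E type, was at 25.1, 33.9 and 26.1 CPM in the 113Q mice, against 18.4, 19.1 and 21.7 CPM in the WT mice. All 3 113Q mice lay above all WT mice, 1.44 times higher (log2 fold change 0.52 ± 0.13 SE, edgeR adjusted p = 0.0174). The call was lost without 113Q mouse 2 (edgeR adjusted p = 0.0531) and without WT mouse 1 (adjusted p = 0.0602), and the value stayed between 0.38 and 0.61 when each mouse was left out. Over 17 alternatives H2-Eb1 passed in 14, with an adjusted p from 8.24e-05 to 0.263.

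The proximal promoters of 2 class II chain genes are shown because class II genes are known to share an upstream X box, bound by the RFX complex, and a Y box, an inverted CCAAT bound by NF-Y, through which the coactivator Ciita acts. The sequences are the 120 bases before the gene start, from RefSeq on build GRCm38.p6, read 5′ to 3′ on the gene's strand. Capitals mark CTGATTGG, taken as the Y box, and GCAACT, part of the X box, whose letters were chosen after these sequences had been read.
H2-Aa, chr17:34287824-34287943, minus strand: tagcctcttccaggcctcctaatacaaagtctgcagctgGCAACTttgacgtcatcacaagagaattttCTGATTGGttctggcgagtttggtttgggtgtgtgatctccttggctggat
H2-Eb1, chr17:34305747-34305866, plus strand: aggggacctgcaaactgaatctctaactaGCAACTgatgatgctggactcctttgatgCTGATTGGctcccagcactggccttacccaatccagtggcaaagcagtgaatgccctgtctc
The Y box began 51 bases before the start of H2-Aa and 62 bases before that of H2-Eb1, and the X and Y letters lay 24 and 23 bases apart. CTGATTGG on either strand was in 3.83% of 32851 promoter windows of 250 upstream bases. Only 23 of the 33 members had a window, and among these it was in H2-Aa and H2-Eb1. The other members were not searched, so their absence here does not show that they lack the letters. GCAACT was in 9.01% of windows and in 4 of the 23 members, which were H2-Aa, H2-Eb1, Fcgr1 and Itgax. The core GAGGAA of the Spi1 motif was in 23.3% of windows and in 13 of the 23 members (56.5%). These were Aif1, C1qb, C1qc, Cd3e, Cd68, Cd79a, Ctss, Fcgr1, Fcgr3, Itgam, Laptm5, Mrc1 and Ptprc, lymphocyte genes among them. A member counted once if any of its windows matched, while the share of all windows counts each window. These matches describe the letters of the windows and do not show binding.

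The other class II genes pointed the same way without passing. H2-Aa, the alpha chain of the I-A molecule, was at 35.9, 45.4 and 34.0 CPM in the 113Q mice, against 25.3, 26.2 and 34.2 CPM in the WT mice. WT mouse 3 lay just above 113Q mouse 3, and the log2 fold change of 0.43 ± 0.15 did not pass in edgeR (adjusted p = 0.0617) but did in DESeq2 (adjusted p = 0.0331). Cd74 was at 68.1, 92.6 and 75.9 CPM in the 113Q mice, against 56.6, 62.2 and 67.9 CPM in the WT mice. The groups of Cd74 mice did not overlap, and its log2 fold change of 0.34 ± 0.12 did not pass in edgeR (adjusted p = 0.0648) but did in DESeq2 (adjusted p = 0.0428) and voom (adjusted p = 0.0399). H2-Ab1, the beta chain of the I-A molecule, averaged 26.8 ± 6.58 CPM in 113Q mice and 20.8 ± 1.61 CPM in WT mice (SD, n = 3 each; log2 fold change 0.36 ± 0.17 SE, edgeR adjusted p = 0.144).

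In all 4 class II genes 113Q mouse 2 was the highest of the 6 and WT mouse 1 the lowest. H2-Aa passed without WT mouse 3 (edgeR adjusted p = 0.0229), and H2-Ab1 and Cd74 passed without 113Q mouse 1 (adjusted p = 0.0183 and 0.0341). Over all alternatives the adjusted p ran from 0.000323 to 0.429 for H2-Aa, from 0.000534 to 0.937 for H2-Ab1 and from 0.000108 to 0.63 for Cd74. Within the libraries with Epcam (2 113Q mice and 1 WT mouse) the mean log2 difference was 0.64 for H2-Eb1, 0.59 for H2-Aa, 0.48 for H2-Ab1 and 0.43 for Cd74. Within those without it (1 113Q mouse and 2 WT mice) it was 0.33, 0.28, -0.02 and 0.13 in the same order. The part of epithelial tissue in these differences was not tested.

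Ctss, cathepsin S, averaged 8.44 ± 1.05 CPM in 113Q mice and 7.16 ± 2.06 CPM in WT mice (SD, n = 3 each), with WT mouse 1 alone well below the rest at 4.80 CPM. Itgax, the integrin chain CD11c of dendritic cells and some macrophages, was at 0.279, 0.727 and 0.826 CPM in the 113Q mice, against 0.207, 0.453 and 0.308 CPM in the WT mice. These values rest on 25 to 77 counts per 113Q library and 7 to 24 per WT library, and the log2 fold change of 0.90 ± 0.51 did not pass (edgeR adjusted p = 0.211).

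None of the 3 C1q chains passed with any of the 3 tools, also before adjustment in edgeR. C1qa was at 13.2, 13.9 and 14.7 CPM in the 113Q mice, against 9.80, 12.1 and 14.5 CPM in the WT mice. C1qb and C1qc ranged from 10.8 to 14.9 and from 12.7 to 14.9 CPM in the 113Q mice, against 10.6 to 14.1 and 11.5 to 14.5 CPM in the WT mice. The groups overlapped for each chain, with 113Q mouse 3 highest in all of them. Their log2 fold changes were 0.20, 0.11 and 0.12 (SE 0.15, 0.16 and 0.13; edgeR adjusted p = 0.345, 0.624 and 0.495). The 3 chain genes lie near each other on the minus strand at chr4:136880129-136898803 (GENCODE M21, mm10).

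The 5 Fc receptors and adaptors held no call with any of the 3 tools, and none before adjustment in edgeR. Tyrobp (DAP12) and Fcer1g, transmembrane adaptors that carry activating motifs for many myeloid receptors, averaged 3.03 ± 0.462 and 4.13 ± 0.325 CPM in 113Q mice, against 3.32 ± 0.545 and 4.14 ± 0.831 CPM in WT mice (SD, n = 3 each). Their log2 fold changes were -0.13 ± 0.21 and -0.01 ± 0.19. The low-affinity receptor Fcgr3, which signals through Fcer1g, averaged 3.53 ± 0.152 CPM in 113Q mice and 3.34 ± 0.837 CPM in WT mice. The inhibitory receptor Fcgr2b averaged 4.02 ± 0.689 CPM in 113Q mice and 3.89 ± 1.14 CPM in WT mice. The high-affinity receptor Fcgr1 was at 0.882, 0.961 and 0.579 CPM in the 113Q mice, against 0.859, 0.472 and 0.866 CPM in the WT mice.

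Cd163 and Mrc1, the haemoglobin scavenger receptor and the mannose receptor of resident macrophages, were spread more widely among the WT mice than among the 113Q mice. Cd163 was at 6.91, 6.47 and 6.39 CPM in the 113Q mice, against 5.30, 6.83 and 13.2 CPM in the WT mice. Mrc1 was at 17.3, 12.8 and 14.3 CPM in the 113Q mice, against 9.27, 10.8 and 20.0 CPM in the WT mice. WT mouse 3 was the highest and WT mouse 1 the lowest of the 6 mice for both genes. Their log2 fold changes of -0.36 ± 0.32 and 0.14 ± 0.30 did not pass (edgeR adjusted p = 0.424 and 0.747). Without WT mouse 3 they were 0.12 and 0.56, and Mrc1 then passed (edgeR adjusted p = 0.0424; range over alternatives 0.0424 to 0.989).

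**Figure D3:**
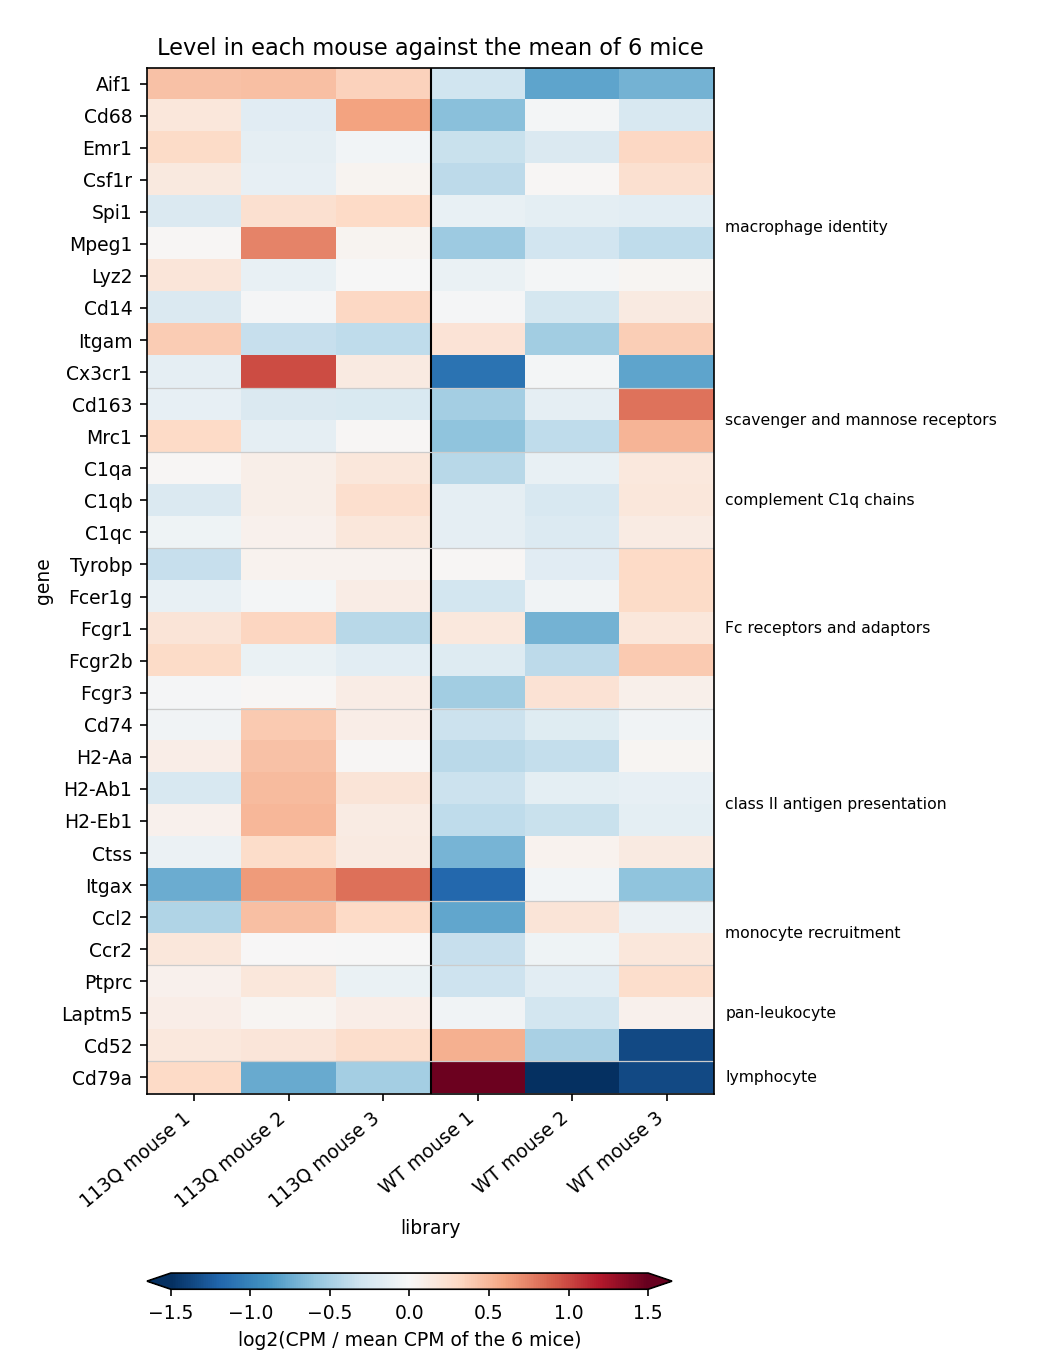
Level of each tested member in each mouse as the log2 of its CPM over the mean of the 6 mice, with colours capped at 1.5 in either direction. WT mouse 1 holds the lowest value of 19 of 32 members, WT mouse 3 the highest of 8, and 113Q mouse 2 the highest of 10.

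The spread among WT mice was therefore shared across many members, as the map of levels by mouse shows. WT mouse 1 had the lowest value of the 6 mice for 19 of 32 members and WT mouse 2 for 9. The highest value was in 113Q mouse 2 for 10 members, in WT mouse 3 for 8 and in 113Q mouse 3 for 7. The median member stood at 0.15, 0.14 and 0.24 on the log2 scale relative to the WT mean in the 113Q mice, against -0.16, -0.08 and 0.18 in the WT mice. WT mouse 3 thus lay among the 113Q mice by this measure. Without WT mouse 3 the median log2 fold change of the members was 0.28, and without WT mouse 1 or 2 it was 0.09.

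Ratios between groups of members within a library do not depend on the scaling. The summed level of Cd74 and the 3 class II chains over that of the C1q chains was 2.02, 2.32 and 1.87 on the log2 scale in the 113Q mice, against 1.84, 1.92 and 1.76 in the WT mice. The groups overlapped, with 113Q mouse 3 below WT mouse 2. Cd163 and Mrc1 over C1q stood at -0.60, -1.09 and -1.10 in the 113Q mice, against -1.19, -0.96 and -0.38 in the WT mice. C1q over the pan-leukocyte genes stood at 1.56, 1.73 and 1.87 in the 113Q mice, against 1.56, 1.81 and 1.83 in the WT mice. None of the 3 ratios separated the groups.

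**Figure D4:**
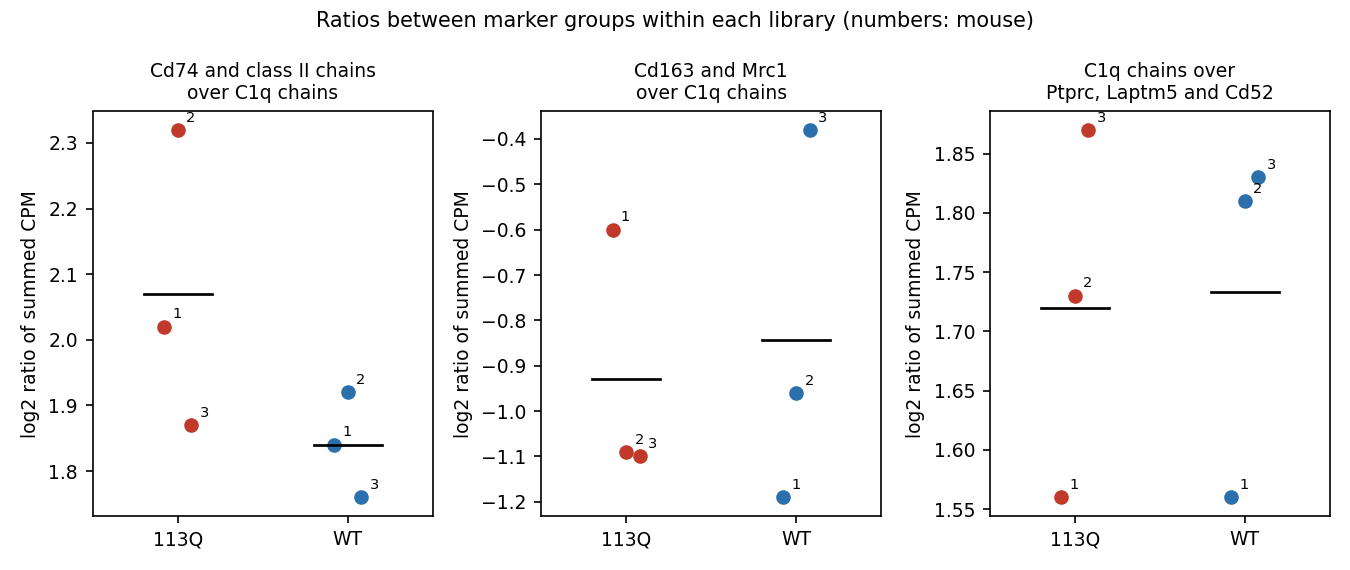
Log2 ratio of summed CPM between groups of members within each library, with 113Q in red left of WT in blue, the mouse number beside each point and a bar at the group mean (n = 3 each). The groups overlap in all 3 panels; the vertical axes do not start at 0.

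Of the 3 pan-leukocyte genes 0 passed with any of the 3 tools, also before adjustment in edgeR. Ptprc, the phosphatase CD45 found on all nucleated blood cells, was at 3.27, 3.52 and 2.92 CPM in the 113Q mice, against 2.52, 2.81 and 3.77 CPM in the WT mice. Laptm5, a lysosomal membrane protein of blood cells, was at 8.13, 7.76 and 8.11 CPM in the 113Q mice, against 7.31, 6.27 and 7.95 CPM in the WT mice. WT mouse 3 lay within the 113Q range of both genes or above it. Their log2 fold changes were 0.09 ± 0.21 and 0.16 ± 0.14 (SE; edgeR adjusted p = 0.774 and 0.426). Cd52, a small surface glycoprotein of lymphocytes and monocytes, was tight in the 113Q mice at 1.09, 1.11 and 1.18 CPM, against 1.42, 0.698 and 0.385 CPM in the WT mice. Its WT range enclosed the 113Q values.

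The chemokine Ccl2 was at 0.447, 0.838 and 0.751 CPM in the 113Q mice, against 0.355, 0.698 and 0.577 CPM in the WT mice. Its receptor Ccr2 was at 4.07, 3.61 and 3.59 CPM in the 113Q mice, against 2.84, 3.45 and 4.06 CPM in the WT mice. The groups overlapped for both, and neither passed (log2 fold change 0.31 ± 0.40 and 0.12 ± 0.19; edgeR adjusted p = 0.593 and 0.667).

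In Ccl2, Cx3cr1 and Itgax, which have low counts, the libraries with epithelial transcripts ranked above the others. For these 3 members every library with Epcam of at least 1 CPM (113Q mice 2 and 3 and WT mouse 2) lay above every library without it. Such an order was found for 3 of the 32 tested members (9.38%), beside 5.1% of all genes tested. It is not read as a result about these members. Itgam had the opposite order, as did 4.14% of all genes. Within the libraries with Epcam the mean log2 difference between 113Q and WT was 0.77 for Itgax, 0.18 for Ccl2 and 0.59 for Cx3cr1, and within those without it 0.14, -0.02 and 0.82. With a term for Epcam in the fit, Aif1 and H2-Eb1 still passed and Mpeg1 did not (edgeR adjusted p = 0.0818). In the libraries below 1 CPM of Epcam, where 113Q is 1 mouse whose spread is taken from the WT mice, 0 members passed in edgeR.

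Lymphocyte transcripts were scarce. Cd3e, a chain of the T cell receptor complex, had 4, 6 and 5 counts in the 113Q libraries, against 0, 2 and 0 in the WT libraries. It fell below the count filter, and it was the only member that did. Its 15 counts against 2, each relative to library size after TMM scaling, give a ratio of 3.82. The exact 95% interval is 0.889 to 34.4 and covers counting error only. Both the ratio and the interval depend on that scaling. Cd79a, a chain of the B cell receptor complex, had 27, 13 and 16 counts in the 113Q libraries, against 23, 4 and 5 in the WT libraries. Its level was highest in WT mouse 1 at 0.681 CPM, against 0.0755 to 0.0962 CPM in the other WT mice, and its log2 fold change of -0.38 ± 0.83 turned to 1.25 without that mouse (edgeR adjusted p = 0.212; range over alternatives 0.212 to 0.957).

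Levels of different genes were compared per kilobase of annotated exon. Cd74 stood at 47.0 ± 7.46 CPM per kb in 113Q mice and 37.1 ± 3.36 in WT mice (SD, n = 3 each). Lyz2 came second to it in 113Q mice and first in WT mice, at 38.3 ± 1.70 CPM per kb there, within the spread of Cd74. H2-Eb1 was at 14.6 ± 2.49 CPM per kb in 113Q mice, where it came after Cd74 and Lyz2, and at 10.1 ± 0.905 in WT mice, where it followed C1qa and C1qb. C1qa was at 13.4 ± 0.684 CPM per kb in 113Q mice and 11.7 ± 2.26 in WT mice. In 113Q mice C1qa was within the spread of H2-Eb1, and in WT mice H2-Eb1 was within the spread of C1qa. C1qb, H2-Ab1, H2-Aa, C1qc and Ctss filled the places down to 6.22 CPM per kb in 113Q mice and 5.27 in WT mice for Ctss. Fcer1g, Tyrobp and Csf1r, in that order in 113Q mice, lay between 4.73 and 3.18 CPM per kb in 113Q mice, against 4.98 and 3.07 in WT mice. From Cd68 down to Cd14 the levels ran from 2.41 to 1.04 CPM per kb in 113Q mice, and the other 13 members were below 1 in both groups. Cd3e was last in both groups, at 0.0135 ± 0.00277 CPM per kb in 113Q mice and 0.00308 ± 0.00534 in WT mice. Aif1 stood 22nd of 33 in 113Q mice and 27th in WT mice.

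Most other genes of the same cells and pathways did not pass either. Of 193 tested genes on 11 related lists, 14 passed as higher in 113Q (7.25%) and 15 as lower (7.77%), beside the 16.5% and 18.1% of all genes, with a median log2 fold change of 0.02. With library totals alone, 107 passed as higher and 5 as lower. Of the 15 that were lower, 8 had a positive log2 fold change with that scaling, among them Rfxap (0.44), Erap1 (0.34), C1qbp (0.03), Cxcl12 (0.11), Cxcr4 (0.05) and Evi2a (0.12). That scaling raised the median of all genes by 0.72.

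**Figure D5:**
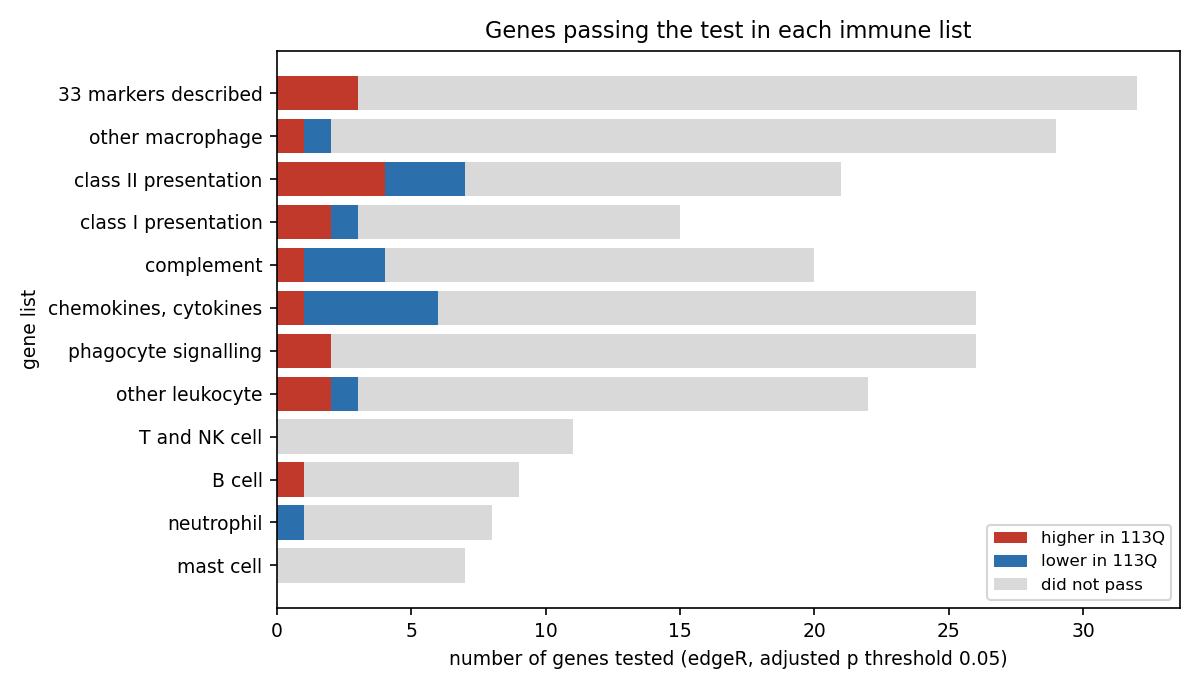
Number of tested genes in each immune list that passed the edgeR test as higher in 113Q (red), as lower (blue) or did not pass (grey). Most genes of each list did not pass, and the bars do not show the share of all genes that passed (34.6%).

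Among 21 further genes of class II presentation, 4 rose (19%) and 3 fell (14.3%), near the 16.5% and 18.1% of all genes tested. Lgmn, the lysosomal protease legumain, averaged 157 ± 2.02 CPM in 113Q mice and 66.7 ± 8.75 CPM in WT mice (log2 fold change 1.24, edgeR adjusted p = 8.79e-05). Ifi30, the thiol reductase of the antigen-loading compartment, averaged 16.7 ± 0.715 CPM in 113Q mice and 10.5 ± 2.55 CPM in WT mice (log2 fold change 0.67). It lost its call without 113Q mouse 3 (edgeR adjusted p = 0.0557; range over alternatives 0.000168 to 0.225). Rfx5, a subunit of the X box complex, rose 2.19 times (edgeR adjusted p = 0.0126), although it overlaps an antisense gene, while Rfxap, another subunit, fell by 0.28 on the log2 scale (edgeR adjusted p = 0.0385). Rfxap lost its call whichever mouse was left out (edgeR adjusted p from 0.0601 to 0.114). Xcr1, a chemokine receptor of cross-presenting dendritic cells, was at 0.234, 0.347 and 0.279 CPM in the 113Q mice, against 0.918, 0.698 and 0.616 CPM in the WT mice (log2 fold change -1.36, edgeR adjusted p = 0.0202). It lost its call without 113Q mouse 1 or 3 or WT mouse 1 (edgeR adjusted p = 0.0635, 0.0732 and 0.0668; range over alternatives 0.0158 to 0.174). Zbtb46, a transcription factor of classical dendritic cells that endothelium also expresses, fell to 0.603 of its WT level, with 0.0689 as its edgeR adjusted p without 113Q mouse 2 (range over alternatives 0.00224 to 0.973) and a log2 fold change of -0.01 with library totals alone.

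Of 29 other macrophage genes, 1 rose (3.45%) and 1 fell (3.45%), beside 16.5% and 18.1% of all genes tested. Trem2, a lipid receptor that signals through Tyrobp, was at 1.12, 1.81 and 1.13 CPM in the 113Q mice, against 0.444, 0.849 and 0.443 CPM in the WT mice (log2 fold change 1.21, edgeR adjusted p = 0.0375). The groups did not overlap, and the call was lost without 113Q mouse 1, 2 or 3 (edgeR adjusted p = 0.0552, 0.147 and 0.0641) and without WT mouse 1 or 3 (adjusted p = 0.103 and 0.111; range over alternatives 0.00177 to 0.165). Maf, a transcription factor of macrophages and other cells, fell to 10.4 ± 0.795 CPM in 113Q mice, against 26.9 ± 1.38 CPM in WT mice (edgeR adjusted p = 5.23e-05). Of 26 phagocyte signalling genes, 2 rose (7.69%) and 0 fell in edgeR. At an unadjusted p below 0.05 there were 3 and 1, in DESeq2 2 and 1, and in voom 1 and 0. The 2 that rose in edgeR were the endotoxin receptor Tlr4, 1.95 times, and its adaptor Myd88, 1.32 times. Myd88 lost its call on leaving out each mouse other than 113Q mouse 2 (edgeR adjusted p from 0.0554 to 0.128). Of 22 other leukocyte genes, 2 rose (9.09%) and 1 fell (4.55%). They were Cd44, a hyaluronan receptor of many cell types, 2.60 times, Lsp1, an actin-binding protein, by 0.38 on the log2 scale, and Evi2a, at 0.663 of its WT level. Lsp1 lost its call on leaving out each mouse other than 113Q mouse 2 (edgeR adjusted p from 0.0581 to 0.134), and Evi2a without 113Q mouse 1 or 2 or WT mouse 1 or 3 (adjusted p = 0.0688, 0.0787, 0.0618 and 0.0671).

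Of 20 complement genes other than C1q, 1 rose (5%) and 3 fell (15%), beside 16.5% and 18.1% of all genes tested. Cd55, a membrane inhibitor of complement, fell to 46.1 ± 2.14 CPM in 113Q mice, against 163 ± 28.2 CPM in WT mice (log2 fold change -1.82, edgeR adjusted p = 4.35e-05), and stayed lower with library totals alone (-1.10). Masp1, a protease of the lectin pathway, fell to 0.405 and C1qbp, a mitochondrial protein that binds C1q, to 0.621 of the WT level, while C1rl, a C1r-like protease, rose by 1.32 on the log2 scale. Exons of Maf, Rfx5, Ifi30, Pdia3, Erap1, Cd55 and Myd88 overlap a gene on the opposite strand, and those of Evi2a a gene on the same strand, so reads of those neighbours may be among their counts. Of 15 class I presentation genes, 2 rose (13.3%) and 1 fell (6.67%) in edgeR. In DESeq2 and at an unadjusted p below 0.05 in edgeR, 4 were higher and 1 lower, and in voom 6 and 1. The chaperones Pdia3 and Calr, which serve protein folding in general, rose 1.68 and 1.44 times, and the peptidase Erap1 had a level of 0.768 times WT and lost its call without 113Q mouse 3 (edgeR adjusted p = 0.0528).

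Of 26 chemokine and cytokine genes, 1 rose (3.85%) and 5 fell (19.2%) in edgeR, beside 16.5% and 18.1% of all genes tested. DESeq2 also called 1 higher and 5 lower, while voom called 3 and 3. With edgeR there were 3 and 5 at an unadjusted p below 0.05, and 14 and 1 with library totals alone. Ccl12, a monocyte-attracting chemokine close to Ccl2, was at 0.212, 0.648 and 0.257 CPM in the 113Q mice, against 0, 0.0755 and 0.0385 CPM in the WT mice (log2 fold change 3.10, edgeR adjusted p = 0.0188). It lost its call without 113Q mouse 2 or WT mouse 3 (edgeR adjusted p = 0.0883 and 0.0655; range over alternatives 0.00272 to 0.196). Il15, a cytokine made by muscle fibres and myeloid cells, was at 1.92, 4.37 and 2.25 CPM in the 113Q mice, against 9.36, 8.45 and 8.18 CPM in the WT mice (log2 fold change -1.60, edgeR adjusted p = 0.00498). Cxcl12, a chemokine made by stromal cells, fell to 74.6 ± 6.49 CPM in 113Q mice, against 114 ± 8.32 CPM in WT mice, and its receptor Cxcr4 fell to 3.90 ± 0.504 CPM, against 6.19 ± 0.689 CPM. Cxcr4 lost its call without 113Q mouse 1 or 2 or WT mouse 2 (edgeR adjusted p = 0.0532, 0.0599 and 0.0527).

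The lists of other blood cells held 1 gene higher (11.1% of the B cell list) and 1 lower (12.5% of the neutrophil list). Of all genes tested, 16.5% were higher and 18.1% lower. Of the 25 T and NK cell genes, 11 could be tested and 0 passed in edgeR (0 higher and 1 lower in DESeq2, 0 in voom; at an unadjusted p below 0.05, 2 were higher and 1 lower). Of 9 B cell genes tested 1 rose, Igj, the joining chain of polymeric antibodies, at 0.290, 0.492 and 2.61 CPM in the 113Q mice, against 0.118, 0.189 and 0.154 CPM in the WT mice. Without 113Q mouse 3 its log2 fold change was 1.33 rather than 2.84, and it lost its call without 113Q mouse 3 or any WT mouse (edgeR adjusted p from 0.115 to 0.147). Of 8 neutrophil genes 1 fell, Mmp8, a neutrophil collagenase, to 0.125 ± 0.0255 CPM in 113Q mice, against 0.462 ± 0.167 CPM in WT mice. It lost its call without 113Q mouse 3 or WT mouse 3 (edgeR adjusted p = 0.0654 and 0.0699). Of 7 mast cell genes 0 passed with any of the 3 tools, also before adjustment in edgeR.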

How the data were processed

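The deposited table holds estimated counts per gene and mouse, not scaled to depth, which the authors deposited as Cuffdiff output (version 2.1.1 in the submitters' processing notes, beside TopHat2 2.0.9, Bowtie2 2.1.0 and genome build mm10). No source used here gives the annotation or the strand setting. Between 5.38% and 5.96% of values per library were fractional; those of all 33 members were whole. Values were rounded, and 113Q was set against WT in R 4.3.3 (edgeR 4.0.16) over all 16960 genes passing filterByExpr (minimum count 10), with TMM factors (1.26 to 1.32 in 113Q, 0.768 to 0.794 in WT), robust quasi-likelihood fits, a two-sided F test and Benjamini-Hochberg adjustment at 0.05. Standard errors are the log2 fold change over the square root of F. Labels name separate mice and no batch.

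Exon lengths, positions and overlaps come from GENCODE M21, on the assembly of mm10. Exons of 7 members overlap another annotated gene, among them Csf1r and Cd52 on the opposite strand, where reads cannot be told apart without strand. Members, lists and alternatives were chosen with earlier results of these data known. Every member was named, and from each related list up to 3 passing genes per direction with the smallest p. The scripts were tested on simulated data, where small changes were mostly missed and calls on unchanged genes were more frequent than the nominal rate. Far fewer genes were changed there than passed between these mice, so those rates need not hold for the data described here. Alternatives used DESeq2 1.42.0, limma 3.58.1 (voom), other scalings, filters and fits, a term for Epcam (at least 1 CPM), a replicate block and leaving out each mouse.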

Additional observations from a re-analysis of the deposited data

How the results depend on the processing

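The number of members higher in 113Q, 3 as reported, was 28 with library totals alone, 5 with DESeq2, 1 with the replicate block, 0 at a threshold of 0.01, 0 in the libraries below 1 CPM of Epcam, and 0 to 4 when each mouse was left out; 0 were lower under any alternative run. The related genes higher in 113Q, 14 as reported, were 107 with library totals alone, 5 in the libraries below 1 CPM of Epcam, 5 at a threshold of 0.01 and 8 to 16 with a mouse left out; those lower, 15 as reported, were 5, 7, 6 and 9 to 12 in the same order, and 9 with the replicate block. Of all genes, 1300 were higher and 1827 lower in the libraries below 1 CPM of Epcam, 11015 and 710 when scaled to library totals, and 1462 and 1962 at a threshold of 0.01; with a mouse left out, 2004 to 2559 were higher and 2312 to 2843 lower. The labels name no pairing of same-numbered mice of the 2 groups. Their deviations from the group means had r of 0.198, 0.236 and -0.274 for mice 1, 2 and 3. Between differently numbered mice of the 2 groups r ran from -0.436 to 0.379. With the replicate block Aif1 and Mpeg1 did not pass (edgeR adjusted p = 0.0645 and 0.0546).

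Signs turned only for members that had not passed. With library totals alone Itgam was at 0.59, Cd163 at 0.35, Tyrobp at 0.58, Fcer1g at 0.71 and Cd79a at 0.35 on the log2 scale. With voom Emr1 was at -0.08, Csf1r at -0.07, Lyz2 at -0.01, Mrc1 at -0.06, Fcgr2b at -0.14 and Cd79a at 0.21. In the libraries below 1 CPM of Epcam Spi1 was at -0.09, Cd14 at -0.28, Itgam at 0.09, C1qb at -0.24, C1qc at -0.07, H2-Ab1 at -0.03 and Ccl2 at -0.08. With the Epcam term Itgam was at 0.12 and Cd79a at 0.24, and with the replicate block Fcer1g was at 0.01 and Cd79a at 0.05. Fcer1g was at 0.03 with upper-quartile factors and 0.01 without a filter. With a mouse left out, the range was -0.03 to 0.32 for Emr1, -0.11 to 0.20 for Csf1r, -0.02 to 0.13 for Lyz2, -0.06 to 0.21 for Cd14, -0.42 to 0.05 for Itgam, -0.60 to 0.12 for Cd163, -0.06 to 0.56 for Mrc1, -0.24 to 0.00 for Tyrobp, -0.13 to 0.16 for Fcer1g, -0.10 to 0.34 for Fcgr1, -0.11 to 0.31 for Fcgr2b, -0.11 to 0.23 for Fcgr3, 0.00 to 0.25 for Ccr2, -0.03 to 0.28 for Ptprc and -0.86 to 1.25 for Cd79a. The cause was not tested; leaving out mice leaves fewer samples. Low counts limit Cd3e, Cd79a, Itgax, Ccl2, Fcgr1 and Cx3cr1, and Aif1 and Cd52 in WT, to under 50 counts in at least 1 library.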
